A study of Homo sapiens with 8 samples.

Results

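WNT pathway genes were followed through the RNA binding map of IGF2BP1 in H1299 cells, a human non-small cell lung carcinoma line. The set held 53 genes out of 20046 protein-coding genes: WNT ligands, Frizzled and LRP receptors, destruction complex and TCF/LEF factors, together with some of the pathway genes that the study names. They were chosen by name from GENCODE release 44, with earlier results of these data known. Among them, WNT5A, CTNNB1, TCF7 and PPP3CB are named by the study for reduced binding in this same experiment. Shares of members beside those of all genes or peaks therefore describe a chosen set. A peak was assigned to a gene when it lay within the gene on its strand. Wild type cells were given 1.5 µM AVJ16, a small molecule inhibitor of IGF2BP1, or 0.01% DMSO, its solvent, for 24 h, and were crosslinked with UV at 254 nm. Each treatment had 2 libraries from immunoprecipitation of IGF2BP1 (IP) and 2 size-matched input libraries (SMInput), which sample the same lysate without the antibody. Per the labels, the samples were prepared in 2 batches from the same thaw of cells. In enhanced crosslinking and immunoprecipitation (eCLIP), a peak is a short stretch of RNA where IP reads exceed SMInput reads.

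For each treatment a single peak list was deposited, in which both replicates were already combined. The DMSO list held 22311 peaks and the AVJ16 list 22123, and neither file gives a read total, so library depth is unknown. Every peak carried a log2 fold enrichment of IP over SMInput, here called enrichment, and a −log10 p. The lowest enrichment in either list was 3.00, which is 8-fold, and the lowest −log10 p was 3.00. No value per replicate exists in the lists, so the differences below have no replicate error and no test, and intervals are 95% Wilson intervals that cover counting error only. For peaks they treat each peak as independent, although many peaks lie in the same gene, so they may be too narrow. The lists hold no expression level, so a gene without a peak may be bound below the thresholds or may not be transcribed in these cells, and the cell label was not checked against marker genes.

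WNT proteins are secreted lipid-modified ligands that bind Frizzled receptors and their coreceptors on the cell surface. Without a ligand, a destruction complex of APC, AXIN, GSK3 and casein kinase marks β-catenin for degradation. With a ligand, Dishevelled proteins are recruited, the complex is held off, and β-catenin enters the nucleus and acts with TCF/LEF factors on target genes. Other branches run through ROR and RYK receptors or through calcium, calcineurin and NFAT factors. IGF2BP1 is an oncofoetal RNA binding protein known for stabilising mRNAs, among them transcripts of growth and signalling genes.

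With DMSO, 32 of the 53 genes held at least 1 peak, or 60.4% (46.9% to 72.4%), against 25.8% of all protein-coding genes. With AVJ16, 28 held a peak, or 52.8% (39.7% to 65.6%), against 23.2%. The 28 were among the 32, a share of 87.5%, whereas 79.1% of all protein-coding genes bound with DMSO were also bound with AVJ16. ROR2, RYK, TCF7L2 and RUNX2 had peaks with DMSO alone, and no member had peaks with AVJ16 alone. The bound members carried 149 DMSO and 144 AVJ16 peaks, which covered 11301 nt and 10041 nt. Peaks that touch were joined to 122 separate sites with DMSO and 108 with AVJ16. A single peak was all that 5 of the 32 genes had with DMSO, or 15.6%, against 29.1% of all bound genes.

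The stretches of RNA at the most enriched DMSO peaks are shown to set the leading sites beside each other. They are the central 30 nt of the best peak of 12 of the most enriched members, in falling order of enrichment, and of CTNNB1, which was added for its role in the pathway after its values were seen. SMO is shown with its whole peak of 21 nt. Sequences were read from GRCh38 on the transcribed strand, 5′ to 3′, and capitals mark GGAC, the core of the usual m6A context, or CAUA, CAUC or CAUU, the CAUH element described for IGF2BP proteins.
FZD5, 3′UTR, chr2:207764303-207764332, minus strand: ugugauuauggaaacaagucaugcucauga
GSK3B, 3′UTR, chr3:119822658-119822687, minus strand: ugguagaaaccugagccacugaaaauaaaa
DVL3, 3′UTR, chr3:184172912-184172941, plus strand: guccgacucucuugagaauuucucaacgau
FZD7, 3′UTR, chr2:202038058-202038087, plus strand: aguuuuuaaaugccaauCAUAgaggguacu
NFATC3, CDS, chr16:68122616-68122645, plus strand: ccuagauccagugucacugaugagaauugg
FZD1, 3′UTR, chr7:91268215-91268244, plus strand: agcaCAUUcugaggggggaacaauucacac
TCF7, 3′UTR, chr5:134148058-134148087, plus strand: gguuucucagaauccaaagaucaCAUAuuc
SMO, 3′UTR, chr7:129212975-129212995, plus strand: guggggcuggaaGGACcugcu
ROR1, 3′UTR, chr1:64178955-64178984, plus strand: cagaCAUCgcaacaaguaccuucugugaag
LEF1, CDS, chr4:108083368-108083397, minus strand: gucuccgggugguguuGGACagaucacccc
WNT5A, 3′UTR, chr3:55469423-55469452, minus strand: uugcagacagaccguCAUAuucuaauagcu
DKK3, 3′UTR, chr11:11963684-11963713, minus strand: cuaccccacaccagccuuggugccaccaaa
CTNNB1, 3′UTR, chr3:41239481-41239510, plus strand: auacuuugaaaggagaugucuuggaaCAUU
Of these 13 stretches, 8 held a marked motif and 5 held none. FZD5 headed the list with an enrichment of 5.32, GSK3B followed with 5.28 and DVL3 with 4.89.

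**Figure D1:**
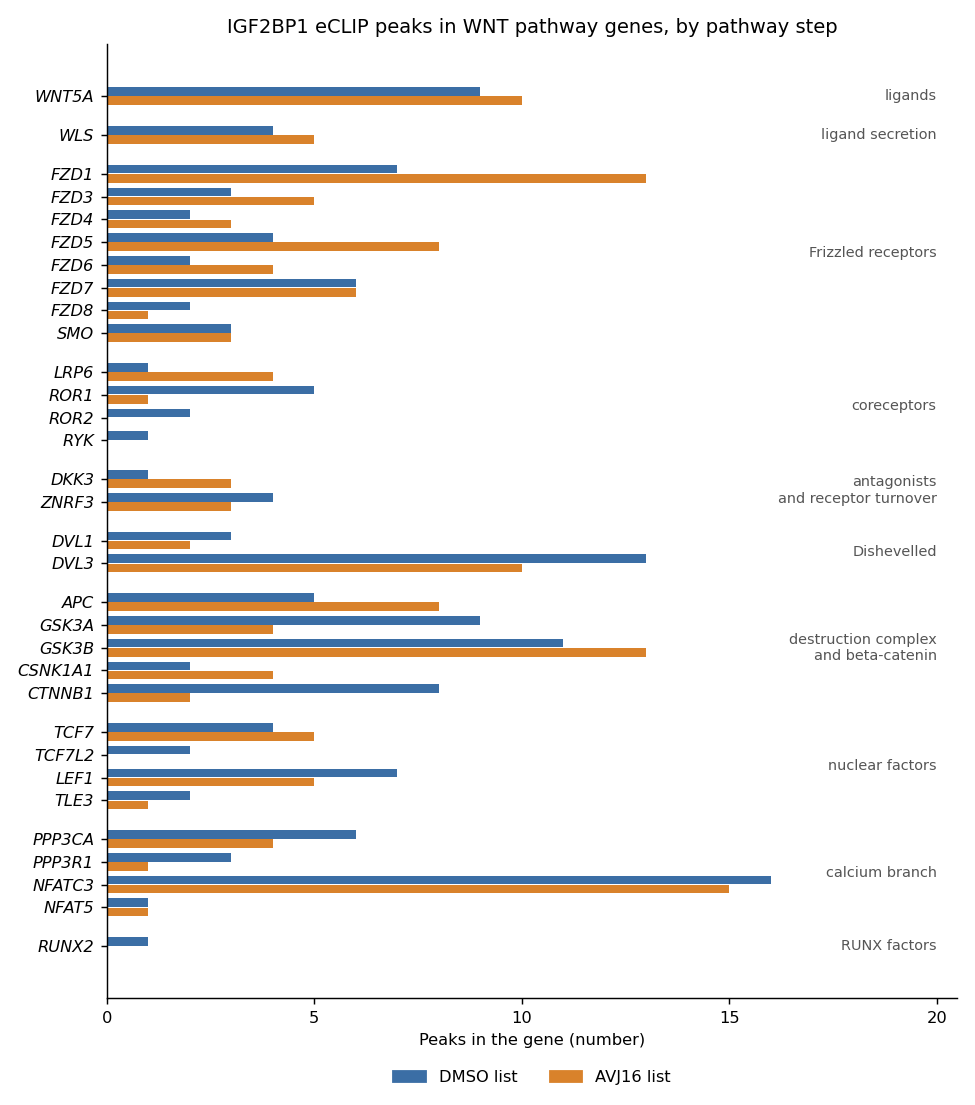
Number of eCLIP peaks in each WNT pathway gene with a peak in either list, grouped by pathway step, with DMSO above and AVJ16 below. NFATC3 had the most DMSO peaks with 16, FZD1 went from 7 to 13 peaks and CTNNB1 from 8 to 2.

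Among the 8 ligand genes, WNT5A was the only one with a peak in either list. WNT5A is a ligand best known for signalling that does not depend on β-catenin. It carried 9 DMSO peaks and 10 AVJ16 peaks, and its 3′UTR of 4377 nt held every one of them. Counted from the stop codon, the DMSO peaks lay at 501, 577 and 655 nt, at 1537, 1620 and 1749 nt, and at 3186, 3318 and 3401 nt, so that they formed 3 clusters. Their enrichments in that order were 3.04, 4.19, 4.31, 4.21, 3.52, 3.79, 4.01, 3.65 and 3.98. With AVJ16 they were 4.18, 3.18, 3.48, 3.68, 3.39, 3.24, 3.63, 3.41, 4.86 and 3.18 from the stop codon onward. An AVJ16 peak overlapped 7 of the 9, and each difference given here is AVJ16 minus DMSO on the log2 scale, against the AVJ16 peak with the largest overlap. The study's limit of 0.5 was used to call a peak lower or higher. The study set this limit beside a p-value filter on peak clusters, which was not applied here, so these calls are not the study's. By that limit 3 peaks of WNT5A were lower (by −0.80, −0.73 and −0.55) and 1 was higher, at 3186 nt, with 4.01 against 4.86. The remaining differences were between −0.13 and 0.16. WNT5B, WNT7A, WNT7B, WNT3, WNT9A, WNT10B and WNT11 had no peak.

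WLS, the carrier that brings WNT ligands to the cell surface, had 4 peaks with DMSO and 5 with AVJ16, mostly at and after its stop codon. All 4 DMSO peaks had partners, but the strongest met its partner at 1 nt, the least overlap allowed. That partner also served the neighbouring DMSO peak, and with an overlap of 50% of both peaks WLS kept 1 shared peak. The DMSO enrichments were 3.64, 3.47, 3.26 and 3.17, and the partners stood at 3.30, 3.30, 3.03 and 3.64. The other AVJ16 peaks were at 3.04 and 3.24. None of the differences passed 0.5. PORCN, which attaches the lipid to the ligands, had no peak.

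The Frizzled group took in the Frizzled genes, the receptors of the ligands, and SMO, which is not a WNT receptor and had 3 peaks in each list. Among the groups its peak number differed most between the lists, with 29 for DMSO and 43 for AVJ16 in 8 of 11 genes. In the same 8 genes the covered length went from 2355 nt to 3317 nt, whereas the number of separate sites was 28 with DMSO and 26 with AVJ16, so the additional peaks largely touched others. All 29 DMSO peaks and 40 of the 43 AVJ16 peaks lay in the 3′UTR. Among the 22 DMSO peaks with a partner, 12 were lower, 5 higher and 5 within 0.5, with a median difference of −0.51.

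FZD5 had the most enriched DMSO peak of the set. Its 4 DMSO peaks had enrichments of 5.32, 4.86, 3.91 and 3.62, and their AVJ16 partners 4.27, 3.94, 3.15 and 3.10. Each partner was lower, with differences from −1.05 to −0.52, and at the best peak the DMSO enrichment was 2.07 times that with AVJ16. At the same time the gene went from 4 to 8 peaks and from 265 to 699 covered nt, with 4 AVJ16 peaks of 3.39, 3.48, 4.24 and 3.72 that overlapped no DMSO peak. Lower enrichment at the shared peaks and additional peaks beside them were thus both measured in this 3′UTR.

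FZD1 went from 7 DMSO peaks to 13 AVJ16 peaks, with all centres between 466 and 1470 nt after the stop codon of a 3′UTR of 4502 nt. The 7 DMSO peaks, in order from the stop codon, had enrichments of 3.70, 4.16, 4.33, 3.74, 3.60, 4.01 and 4.69. Their partners stood at 3.02, 4.24, 3.81, 3.17, 4.62, 4.93 and 4.13. Thus 4 were lower and 2 higher, and the higher ones were neighbours at 1170 nt (1.02) and 1262 nt (0.92). The DMSO peak of 4.16 overlapped AVJ16 peaks of 4.24 and 5.01 equally. The first by position was taken, with a difference of 0.08, whereas the other would have given 0.85, a higher peak. The AVJ16 peaks that were not chosen as partners stood at 5.01, 3.63, 3.46, 4.58, 4.59 and 3.80. The 13 AVJ16 peaks made up 5 separate sites and the 7 DMSO peaks 7.

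FZD7 showed differences in both directions within less than 500 nt of its 3′UTR. Its 6 DMSO peaks had enrichments of 3.71, 3.98, 4.50, 4.13, 4.86 and 4.55 from the stop codon onward, and its 6 AVJ16 peaks 4.77, 3.72, 5.43, 4.57, 4.66 and 3.89. Of the DMSO peaks, 5 had a partner. The largest positive difference of all members was 1.30, at 1651 nt after the stop codon, where 4.13 stood against 5.43. Peaks at 1590 and 1862 nt were lower, by −0.78 and −0.66, and the peak at 1386 nt was higher, with 3.98 and 4.77. FZD7 had the most enriched AVJ16 peak of the set.

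FZD3 had 3 peaks with DMSO (4.16, 4.10 and 3.40) and 5 with AVJ16 (3.41, 3.66, 3.42, 4.04 and 3.21), and its 2 differences were −0.51 and −0.06. FZD6 had 2 DMSO peaks, at 3.41 and 3.35, with partners at 4.33 and 3.59, and further AVJ16 peaks of 3.91 and 3.81. FZD8 had peaks of 3.83 and 3.01 with DMSO and 1 peak of 3.98 with AVJ16, over the first of these. FZD4 was bound in both lists without any overlap: its DMSO peaks of 4.07 and 3.14 lay 5 nt and 293 nt from the nearest AVJ16 peaks, which were 3 in number with enrichments of 3.61, 3.39 and 3.24. SMO, a Frizzled-class receptor that serves Hedgehog signalling, had DMSO peaks of 4.43, 3.63 and 3.98 and AVJ16 peaks of 3.16, 3.03 and 3.26, and the last of each overlapped. Its strongest DMSO peak, the 21 nt shown above, had no partner. FZD2, FZD9 and FZD10 had no peak.

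**Figure D2:**
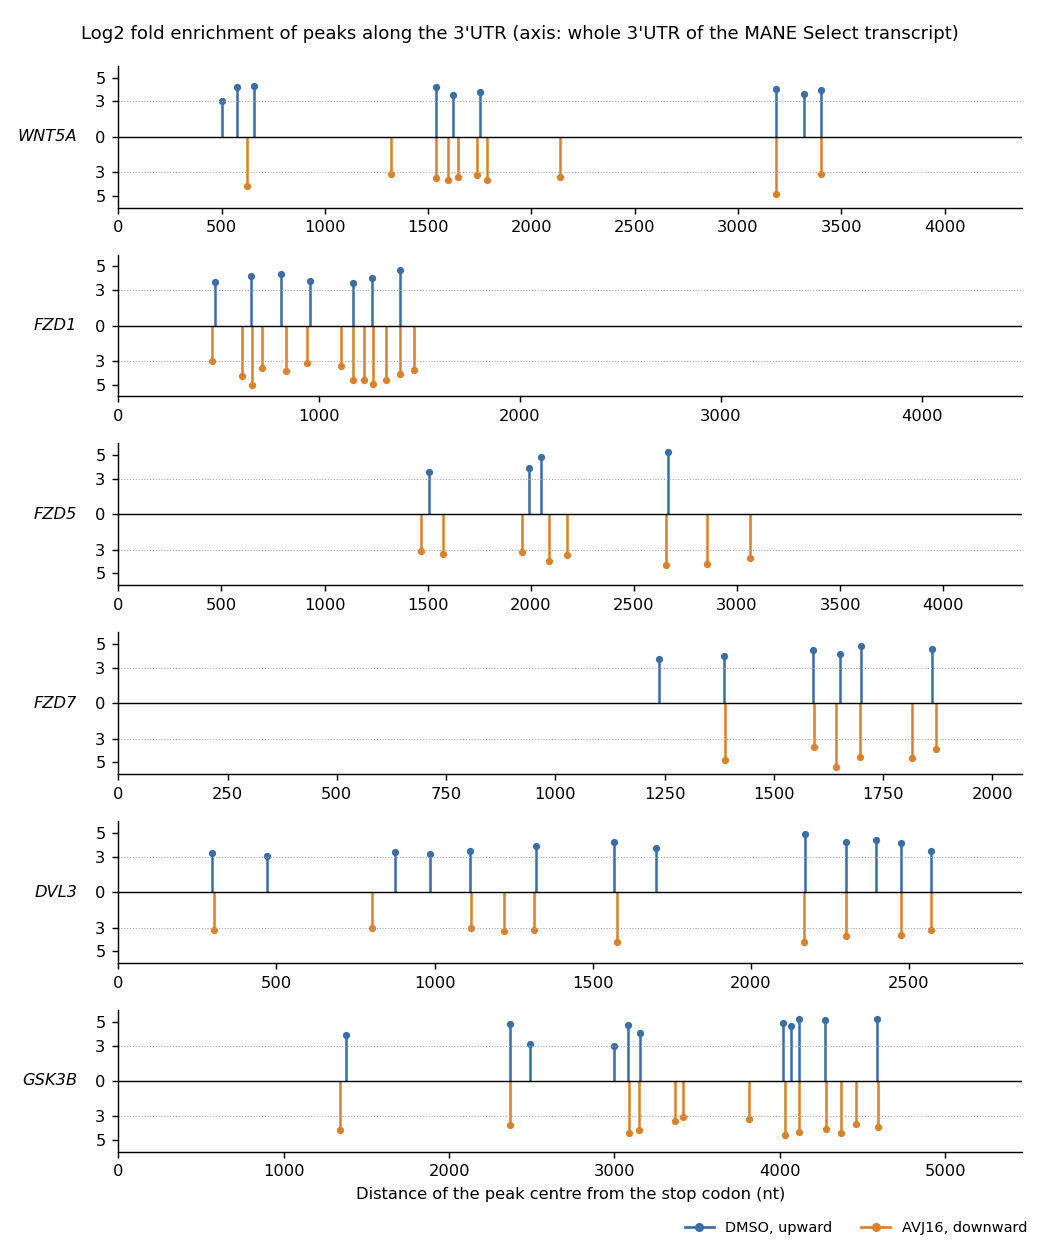
Peaks along the 3′UTR of 6 genes with 3′UTR sites, with the distance of the peak centre from the stop codon in nt on the horizontal axis (the axis spans the whole 3′UTR) and log2 fold enrichment on the vertical axis, upward for DMSO and downward for AVJ16; the dotted lines mark the threshold of 3. Sites recur at like positions in both lists, while in FZD5 the shared peaks are shorter with AVJ16 and in FZD7 and FZD1 some are longer and some shorter.

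Coreceptor genes held 9 peaks with DMSO and 5 with AVJ16. ROR1, a receptor tyrosine kinase-like protein that binds WNT5A, had 5 DMSO peaks with enrichments of 3.87, 4.42, 3.52, 4.40 and 4.13, and a single AVJ16 peak of 3.89. That peak overlapped the fourth of these, so 4 of the 5 had no partner. ROR2 had DMSO peaks of 3.99 and 3.82 and RYK a DMSO peak of 3.35, with no AVJ16 peak in either gene. LRP6, which joins Frizzled in the β-catenin branch, differed from these, with 1 DMSO peak of 3.01 that was 4 nt long and 4 AVJ16 peaks of 3.20, 3.18, 3.34 and 3.02. LRP5 had no peak.

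Of the antagonists and the regulators of receptor turnover, DKK3 and ZNRF3 had peaks. DKK3, a secreted protein of the Dickkopf family, had 1 DMSO peak of 4.15 and 3 AVJ16 peaks of 3.93, 3.49 and 4.22, of which the first overlapped it. ZNRF3 is a ubiquitin ligase that removes Frizzled from the membrane. Its 4 DMSO peaks had enrichments of 3.23, 3.78, 3.30 and 3.69, and the second had a partner at 3.34. Its other AVJ16 peaks had enrichments of 3.17 and 3.51. DKK1, which blocks LRP coreceptors, and RNF43, the paralogue of ZNRF3, had no peak.

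Dishevelled genes differed among themselves in where they were bound. DVL3 had 13 DMSO and 10 AVJ16 peaks, all in its 3′UTR of 2859 nt. The 13 DMSO enrichments, in order from the stop codon, were 3.28, 3.09, 3.38, 3.25, 3.47, 3.87, 4.28, 3.70, 4.89, 4.27, 4.39, 4.14 and 3.44. Those of the 10 AVJ16 peaks were 3.18, 3.06, 3.08, 3.27, 3.25, 4.23, 4.24, 3.72, 3.62 and 3.19. All 10 of its DMSO peaks with a partner were below 0 in difference, from −0.67 to −0.06, and 5 of them passed the limit. Those 5 lay at 1320, 2171, 2302, 2397 and 2476 nt, 4 of them close together in the distal part of the 3′UTR. The peaks at 2302 and 2397 nt had the same AVJ16 partner, of 3.72. FZD5 and DVL3 were the only members with at least 3 shared peaks in which all were below 0, 2 of 13 such members. No share over all genes is given beside this count. In DVL1 the 3 DMSO peaks (3.13, 3.34 and 3.36) and 2 AVJ16 peaks (3.37 and 3.53) lay close together in a distal intron and were the only intron peaks of the set. DVL2 had no peak.

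In the destruction complex and its target β-catenin, 5 of 7 genes were bound, with 35 DMSO and 31 AVJ16 peaks. GSK3B, a kinase that phosphorylates β-catenin, had 11 DMSO and 13 AVJ16 peaks in a 3′UTR of 5467 nt. Its 11 DMSO enrichments, in order from the stop codon, were 3.93, 4.81, 3.11, 3.00, 4.75, 4.10, 4.93, 4.69, 5.28, 5.14 and 5.22. Those of the 13 AVJ16 peaks were 4.16, 3.69, 4.39, 4.12, 3.43, 3.01, 3.23, 4.56, 4.35, 4.04, 4.42, 3.67 and 3.90. Among the 9 with a partner, 4 were lower, by −1.12, −0.93, −1.10 and −1.32, and these lay at 2367, 4116, 4271 and 4590 nt. The last difference meant an enrichment 2.49 times as high with DMSO as with AVJ16. The other 5 differences were between −0.37 and 0.24. With AVJ16, 8 of the 13 peaks overlapped a DMSO peak, and the 5 others had enrichments from 3.01 to 4.42.

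GSK3A, the paralogous kinase, had 9 DMSO peaks, which joined to 6 separate sites, and 4 AVJ16 peaks at 4 sites. From 5′ to 3′ the DMSO enrichments were 3.01, 3.23, 3.04, 3.47, 3.36, 3.20, 3.56, 3.53 and 3.95, and those with AVJ16 were 3.47, 3.28, 3.13 and 3.51. Of its DMSO peaks, 7 overlapped the CDS, and 4 CDS peaks had no partner. The 5 differences all lay within 0.5, from −0.44 to 0.27. In part of this locus another gene is annotated on the same strand, so the reads cannot be assigned to GSK3A alone.

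APC, the scaffold of the complex, had 4 CDS peaks and 1 3′UTR peak with DMSO, and 8 CDS peaks with AVJ16. All CDS peaks lay in the later part of its CDS, from position 6502 of an mRNA of 10704 nt onward. The 4 DMSO peaks in the CDS had enrichments of 3.39, 3.20, 3.03 and 3.04 and partners at 4.06, 3.11, 3.79 and 3.10. Hence 2 were higher, by 0.67 and 0.76, and APC was, with FZD6 and PPP3CA, among the 3 genes with higher but no lower peaks. In APC and FZD6 every shared DMSO peak was below 3.5, where the threshold of 3 allows no fall of more than 0.5. The 3′UTR peak of APC had an enrichment of 3.69, and the other 4 AVJ16 peaks 3.36, 3.41, 3.27 and 3.68. A readthrough gene overlaps APC on the same strand.

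CTNNB1, which encodes β-catenin, had 8 DMSO peaks and 2 AVJ16 peaks. Of the DMSO peaks, 6 overlapped the CDS and 2 lay in the 3′UTR, with enrichments from 5′ to 3′ of 3.00, 3.26, 3.10, 3.25, 3.05, 3.41, 3.66 and 3.39. The AVJ16 peaks overlapped the sixth and the seventh, with 3.22 and 3.17, at differences of −0.19 and −0.49. The 6 peaks without a partner had enrichments of 3.00 to 3.39, near the threshold of 3 that a peak needs to be listed. A peak absent from a list has no measured value there and may lie just below either threshold. CSNK1A1, casein kinase 1α, had DMSO peaks of 3.55 and 3.56 and 4 AVJ16 peaks of 3.38, 4.00, 3.96 and 3.18 at the same place. AXIN1 and AXIN2 had no peak.

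Among the nuclear factors, the shared peaks of TCF7 and LEF1 were mostly lower with AVJ16. TCF7 and LEF1 encode DNA binding partners of β-catenin. In TCF7, the 2 strongest DMSO peaks, of 4.45 and 4.47 in the 3′UTR, had partners at 3.12 and 3.59, and the difference of −1.33 was the most negative of all members. A CDS peak of TCF7 was higher, with 3.44 and 3.95, and another, of 3.15, had no partner. Its remaining AVJ16 peaks had enrichments of 3.31 and 3.06. LEF1 had 7 DMSO peaks, 6 of them in the CDS, with enrichments from 5′ to 3′ of 3.74, 4.29, 3.57, 4.40, 3.93, 3.85 and 4.21, and 5 AVJ16 peaks of 3.38, 3.92, 3.79, 3.03 and 3.98. All 7 DMSO peaks had a partner. Of these, 4 were lower, with differences of −0.91, −0.61, −0.90 and −0.82, and 1 was above 0, at 0.35. The differences of −0.90 and −0.82 came from touching DMSO peaks set against the same AVJ16 peak, of 3.03. TCF7L2 had DMSO peaks of 3.25 and 3.32 and no AVJ16 peak. TLE3, a corepressor, had touching DMSO peaks of 3.05 and 3.21 in the 3′UTR and an AVJ16 peak of 3.23 in the CDS, 9143 nt away in the genome. TCF7L1 and TLE1 had no peak.

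The calcium branch stood apart by CDS binding in NFATC3. NFAT factors are transcription factors, most of which are activated by the phosphatase calcineurin. NFATC3 had more peaks than any other member, 16 with DMSO and 15 with AVJ16, of which 15 in each list overlapped the CDS. From 5′ to 3′ its DMSO enrichments were 3.58, 4.00, 3.76, 4.72, 4.20, 3.32, 3.59, 3.96, 3.41, 3.51, 4.32, 4.25, 3.83, 3.42, 3.40 and 3.00. With AVJ16 they were 4.08, 3.29, 3.09, 3.84, 5.29, 3.87, 4.05, 3.20, 3.22, 4.22, 3.06, 3.68, 3.97, 3.62 and 3.40. The strongest peaks of both lists overlapped, at position 1059 of the mRNA. Of its 12 shared peaks 2 were higher, 1 was lower (−0.85) and 9 were within 0.5, with a median of −0.02. DMSO peaks at positions 3136, 3220 and 3325 of the mRNA and 1 peak in the 3′UTR had no partner. Noncoding genes are annotated over some of its exons on the same strand.

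Calcineurin is made of a catalytic and a regulatory subunit. PPP3CA, which encodes a catalytic subunit, had 6 DMSO peaks (3.74, 3.43, 3.66, 3.43, 3.59 and 3.79) and 4 AVJ16 peaks (4.26, 3.72, 3.30 and 3.52). In PPP3CA 3 pairs overlapped, with differences of 0.52, 0.06 and −0.30. PPP3R1, which encodes a regulatory subunit, had DMSO peaks of 3.45, 3.36 and 3.37 and an AVJ16 peak of 3.63 over the second. NFAT5, the member of the family that responds to osmotic stress, had 1 peak in each list, of 3.13 and 3.45, 1119 nt apart. PPP3CB had no peak in either list. The study names PPP3CB among WNT genes whose direct binding fell with AVJ16, from clusters called in each IP sample rather than from these combined lists. Of the RUNX factors, RUNX2 had a DMSO peak of 3.74 with a −log10 p of 3.11, close to the threshold, and RUNX1 had no peak.

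**Figure D3:**
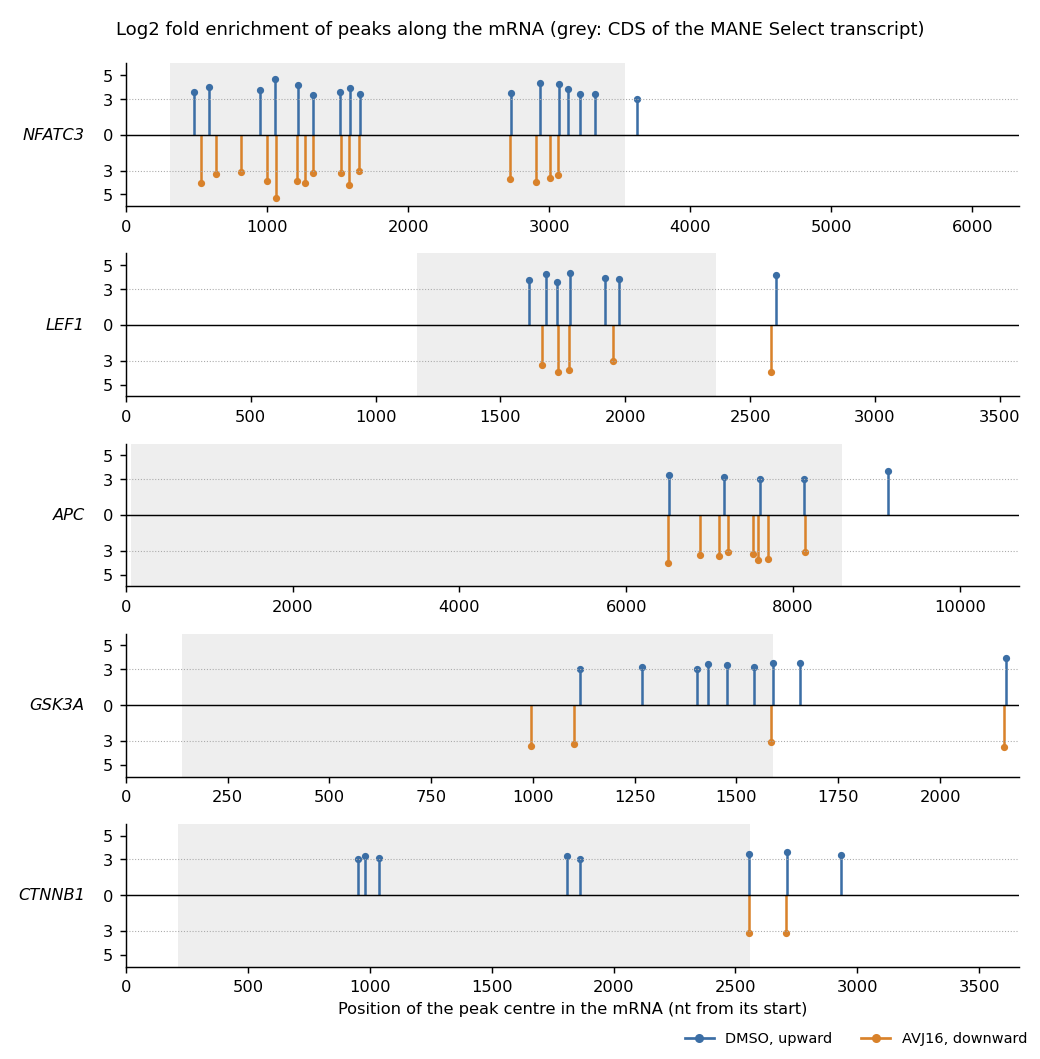
Peaks along the mRNA of the 5 members with most DMSO peaks in the CDS, with the peak centre in nt from the start of the mRNA on the horizontal axis and log2 fold enrichment on the vertical axis, upward for DMSO and downward for AVJ16; grey marks the CDS and dotted lines the threshold of 3. LEF1 and NFATC3 were bound at like positions in both lists, and 2 of the 8 DMSO peaks of CTNNB1 have a partner with AVJ16.

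Over all members, 67.8% of the DMSO peaks (59.9% to 74.8%) lay in the 3′UTR, against 74.6% of the whole list, and 30.2% (23.4% to 38.0%) overlapped the CDS, against 17.3%. With AVJ16 the 3′UTR held 69.4% (all 75.0%) and the CDS 29.2% (all 20.3%). The CDS peaks were concentrated in few genes: NFATC3, GSK3A, CTNNB1, LEF1 and APC held 38 of the 45 DMSO peaks in the CDS. Without NFATC3 the CDS share with DMSO was 22.6%. When the 3′UTR of any transcript was ranked before the CDS, the CDS share with DMSO was 11.4%, since 28 CDS peaks also overlap a 3′UTR of another annotated transcript. Of these 28, 27 are CDS on the MANE Select transcript, the reference transcript of the gene. The share of the whole list under that order is not given, so the 11.4% is not comparable with the 17.3% above. Conversely, 20 of the 32 bound members had every DMSO peak in the 3′UTR, a count given without its share over all genes. No member had a peak in the 5′UTR, 0 of 149 with DMSO, which allows a share of up to 2.51% (upper Wilson limit). In the whole DMSO list 68 of 22311 peaks lay there, or 0.305%, so the 0 of 149 does not set the members apart.

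Bound members had longer 3′UTRs than members without a peak, a median of 2210 nt against 960 nt, as over all protein-coding genes, where the medians were 1941 nt and 718 nt. Of members with a 3′UTR of at least 4000 nt, 8 of 9 had a peak in either list, against 51.2% of all genes of that length. Between 1000 and 2000 nt, 10 of 15 were bound, against 35.1%, and below 500 nt 0 of 3, against 711 of 6481 genes. The share of bound members was thus above that of all genes in the classes from 500 nt upward, with 3 of 11 against 22.5% in the class up to 1000 nt. The 3′UTR peaks lay along its whole length, with a median position at 46.2% of the 3′UTR from the stop codon with DMSO (all 42.2%) and 48.0% with AVJ16 (all 42.0%). In nt from the stop codon, the medians were 1341 with DMSO (all 945) and 1584 with AVJ16 (all 956).

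Of the 149 DMSO peaks, 97 were overlapped by an AVJ16 peak on the same strand, or 65.1% (57.2% to 72.3%), against 66.2% of all DMSO peaks. Of the 144 AVJ16 peaks, 106 were overlapped by a DMSO peak, or 73.6% (65.9% to 80.1%), against 70.8%. Member peaks were thus shared about as often as peaks in general, and 17 of the 97 had a partner that also overlapped another DMSO peak. How often a peak was shared went with its enrichment: 23 of 58 member peaks from 3 to 3.5, 34 of 47 from 3.5 to 4, 26 of 30 from 4 to 4.5 and 14 of 14 above had a partner. Of the 52 DMSO peaks without a partner, 35 had an enrichment below 3.5, and 4 reached 4, of which 2 lay in ROR1, 1 in FZD4 and 1 in SMO.

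At the 97 shared peaks, 32 were lower with AVJ16 by more than 0.5, or 33.0% (24.4% to 42.8%), against 20.1% of all shared peaks. The interval treats the 97 peaks as independent, although they came from 25 genes and 17 had a partner that also overlapped another DMSO peak. Higher by more than 0.5 were 12, or 12.4% (7.22% to 20.4%), against 12.6%. Members and all peaks did not stand apart among the largest decreases, since 5.2% of the member peaks and 5.3% of all shared peaks had a difference of −1 or less. The median difference was −0.30, with a range from −1.33 to 1.30, and over all shared peaks it was −0.06. The lower peaks were spread over 12 genes, with 21 of the 32 in DVL3, FZD1, FZD5, GSK3B and LEF1, and 9 of the 32 were between −0.6 and −0.5. Outside the Frizzled group, which includes SMO, 20 of 75 shared peaks were lower, or 26.7%. Subtracting the median of all shared peaks from each difference left 24 lower and 14 higher member peaks, 24.7% and 14.4%, against 17.4% and 15.1% of all.

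**Figure D4:**
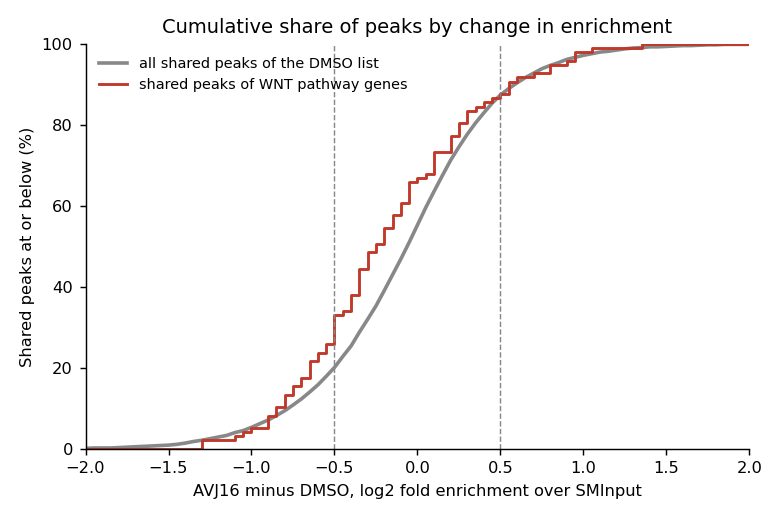
Cumulative percent of shared peaks at or below a given difference in log2 fold enrichment, AVJ16 minus DMSO, for the 97 shared peaks of WNT pathway genes and for all 14759 shared peaks; dashed lines mark the limit of 0.5. From −0.90 to −0.50 the curve of the members lies above that of all peaks, reaching 33.0% against 20.1% at −0.50, whereas at −1 and −0.95 it is slightly below, with 5.2% at both against 5.3% and 6.2%.

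A lower value can be measured only where the DMSO enrichment leaves room above the threshold, so the differences were also set out by DMSO enrichment. For peaks from 3.5 to 4, 10 of 34 shared member peaks were lower, or 29.4%, against 13.7% of all. From 4 to 4.5 it was 13 of 26, against 34.5%, and above 4.5 it was 9 of 14, or 64.3%, against 49.2%. Below 3.5 no peak of either set could be lower by more than 0.5. In the classes from 3.5 upward the members' share of lower peaks was above that of all peaks, with few peaks in each. Higher in these classes were 11.8%, 11.5% and 7.14% of the member peaks, against 11.8%, 7.45% and 4.61% of all. Below 3.5, 17.4% of the member peaks were higher, against 21.6%.

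By region, the median difference was −0.37 at the 66 shared 3′UTR peaks of members (all −0.07) and −0.07 at the 29 shared CDS peaks (all −0.04). Of the 32 lower peaks, 27 lay in the 3′UTR, as did 66 of the 97 shared member peaks and 11742 of all 14759 shared peaks. Peaks below 3.5 with DMSO could not be lower by more than 0.5, and the regions were not compared at like DMSO enrichment. By gene, 25 members had a shared peak: 7 had lower but no higher peaks, 3 had higher but no lower peaks, 5 had both, and 10 had all within 0.5. No share over all genes is given beside these counts, and over all shared peaks, too, more were lower (20.1%) than higher (12.6%). These counts depend on the threshold too: in APC and FZD6, for example, all shared DMSO peaks were below 3.5, so no lower peak was possible there. The best peak of a gene gave another picture, since it need not lie at the same site. Among the 28 genes bound in both lists, the best AVJ16 peak was higher than the best DMSO peak in 15 and lower in 13, with a median difference of 0.05, against 42.6% higher over all such genes. The best peak differed most downward in SMO, from 4.43 to 3.26, and in FZD5, from 5.32 to 4.27, and most upward in FZD6, from 3.41 to 4.33.

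**Figure D5:**
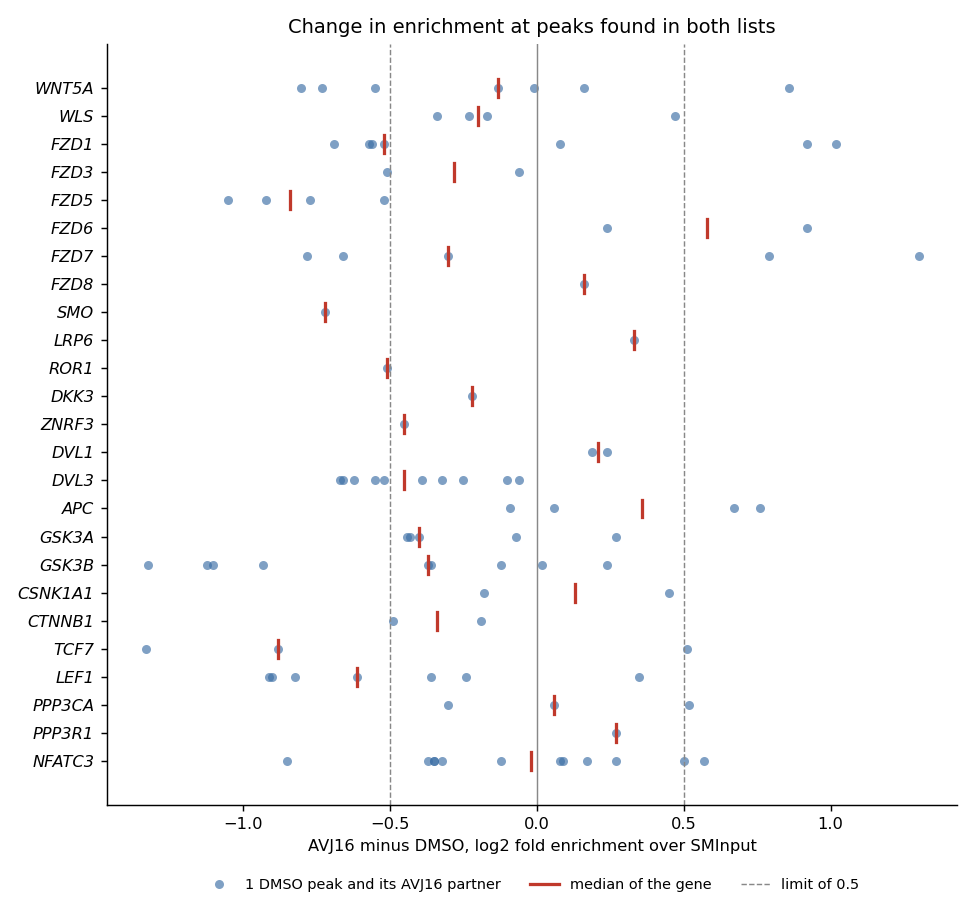
Difference in log2 fold enrichment, AVJ16 minus DMSO, at each shared peak (points) of the 25 WNT pathway genes with a shared peak, with the median of the gene (red bar), the 0 line and the limit of 0.5 (dashed). FZD5 and DVL3 have all points below 0, and WNT5A, FZD1, FZD7, TCF7 and NFATC3 have points beyond the limit on both sides.

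Short motifs were searched in the members' 3′UTR peaks and in those of the whole list, each widened by 25 nt on both sides. GGAC occurred in 20.8% of the DMSO peaks (14.0% to 29.7%; all 23.1%) and in 18.0% of the AVJ16 peaks (11.7% to 26.7%; all 23.1%). CAUA, CAUC or CAUU occurred in 81.2% with DMSO (all 83.5%) and 83.0% with AVJ16 (all 81.7%). Among motifs that the study names, CCNGUU occurred in 15.8% with DMSO (9.99% to 24.2%; all 12.1%) and 15.0% with AVJ16 (all 11.8%). UUUCCGAA, searched as these exact letters, occurred in 0 of 101 and 0 of 100, which allows up to 3.66% and 3.70%. Over all 3′UTR peaks it was in 7 of 16653 with DMSO and 6 of 16594 with AVJ16. These letters were thus rare in both lists, and their absence does not set the members apart. The shares moved with the window. Without widening, CCNGUU occurred in 5.94% with DMSO (2.75% to 12.4%; all 7.31%), so that the order of members and all peaks turned, and CAUA, CAUC or CAUU in 69.0% with AVJ16 (59.4% to 77.2%; all 59.3%). With 50 nt on both sides, GGAC occurred in 32.7% with DMSO (24.3% to 42.3%; all 30.9%) and in 34.0% with AVJ16 (25.5% to 43.7%; all 31.4%), above the share of all peaks, where it had been below at 25 nt. Motifs were searched on the transcribed strand alone, and the median widened peak had a length of 127 nt for members and 119 nt for all with DMSO. A match says only that these letters are present.

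Another 95 genes of the pathway outside the set were counted in the same way. With DMSO 38 of the 95 had a peak and with AVJ16 34, with 31 in both, against 32, 28 and 28 of the 53 members. Over all protein-coding genes, 25.8% had a peak with DMSO and 23.2% with AVJ16. None of their 11 ligands had a peak. At the 171 shared peaks of the 95 genes, 48 were lower and 22 higher, with a median difference of −0.19. Members had 32 lower and 12 higher of 97, and over all shared peaks 20.1% were lower and 12.6% higher. RHOA, a small GTPase of the planar polarity branch, had the most DMSO peaks, 18, and 15 AVJ16 peaks. They lay in the 3′UTR and joined to 3 and 2 sites, where 7 of 18 shared peaks were lower and 0 higher. KREMEN1, a receptor for Dickkopf proteins, had 17 and 15 peaks, CCND2, a cyclin, 17 and 18, and VANGL1, a planar polarity protein, 13 and 17, of which 6 of 13 shared peaks were lower and 2 higher. EP300, a coactivator, had 15 peaks in each list. LGR4, a receptor for R-spondins, had 12 DMSO and 14 AVJ16 peaks, mostly in the CDS, with 3 lower and 4 higher at 12 shared peaks.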

How the data were processed

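IGF2BP1 eCLIP of H1299 cells was analysed from 2 deposited peak lists, each made from 2 IP and 2 SMInput libraries of a treatment, and samples were grouped by treatment as labelled. The authors called peaks with CLIPper on STAR alignments, after removal of adapters, repeat sequences and PCR duplicates, and set the reads of IP under each peak against those of SMInput. The files' descriptions name IDR, a measure of agreement between replicates, and how the replicates were merged is not given in the sources used here. The −log10 p of each peak was deposited with an upper limit of 400, and member peaks ranged from 3.00 to 48.6. The log2 fold enrichment over SMInput was deposited per peak, and no depth can be read from the lists. Library depth, PCR duplication and both thresholds decide which sites are listed, and each list was normalized on its own.

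Peaks lie on GRCh38 (hg38 per the labels) and were assigned to genes of GENCODE release 44, whereas the Methods name an older release. Regions were ranked with the CDS first, then the 3′UTR, the 5′UTR, exons of noncoding transcripts, introns up to 500 nt from an exon and introns farther away, and a peak took the highest region it touched on its strand. For a comparison of lists, the AVJ16 peak with the largest overlap, of at least 1 nt, served as partner of a DMSO peak. Where overlaps were equal, the first by genomic position was taken. The gene names, pathway steps and lists were chosen with earlier results of these data known. All 53 members are accounted for, and peak values are given for members with at least 3 peaks in a list and for the members that the study names in its WNT analyses, whereas other pathway genes are given by counts. Sequences from chromosome 8 are not reported here. Of the DMSO peaks of members, 19 also lay in another gene on the same strand. No test was made, since the lists hold no replicate values. Python 3.11.15, numpy 2.4.6, scipy 1.17.1 and matplotlib 3.10.9 were used, and the assignment and pairing were tested on simulated peaks. Alternatives were stricter thresholds, other overlaps, pairings and region orders, and, chosen after seeing the data, the MANE Select transcript alone.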

Additional observations from a re-analysis of the deposited data

How the results depend on the processing

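Raising the enrichment threshold to 4 in both lists moved most counts: 14 members were then bound with DMSO, 13 with AVJ16 and 9 in both. The 3′UTR then held 86.4% of DMSO and 85.3% of AVJ16 member peaks and the CDS 13.6% and 14.7%, partners were found for 47.7% and 64.7%, and 5 shared peaks were lower and 4 higher. Ranking the 3′UTR before the CDS gave 86.6% and 86.8% in the 3′UTR and 11.4% and 11.8% in the CDS, while the MANE Select transcript alone gave 68.5% and 69.4% in the 3′UTR. Shares over all genes or peaks are not given at the threshold of 4, in that order or on that transcript. Whether members still differed from the rest under these settings was not tested. Asking for an overlap of 50% of both peaks left partners for 47.0% of DMSO and 48.6% of AVJ16 peaks, and a limit of 1 left 5 lower and 2 higher peaks, at which members and all shared peaks had like shares of lower peaks (5.2% and 5.3%). Under the 8 other alternatives, namely a −log10 p of at least 5, exon peaks alone, at least 2 peaks, joined peaks, no peaks in several genes, centring and both other pairings, 45 values stayed within 1.5 times the reported count or within the reported interval. The median difference at shared peaks ranged from −0.33 to −0.12. The median of single genes changed sign for FZD1, FZD7 and NFATC3 at the threshold of 4, for GSK3A without peaks in several genes and for NFATC3 after centring. No paired analysis was possible because the deposited lists combine the replicates of each treatment, and for the same reason no replicate could be left out. Depth is unknown, so a site absent from a list was not detectable past its thresholds and is not shown to be unbound.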
